A study of Helianthus annuus with 12 samples.

Results

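The predicted microRNAs novel_mir21, novel_mir25 and novel_mir12, are described here in sunflower (Helianthus annuus) seedlings whose roots stood in polyethylene glycol (PEG). They are 3 of 90 predicted microRNAs, 253 microRNA names and 15900 named small RNA features in the deposited table, and they were taken by name because an earlier test of the same leaf libraries had placed them higher in PEG leaves. The leaf values below are therefore a description without a test. The comparison of PEG with control in roots, whose libraries had no part in that choice, is the one tested. Its estimate of the spread came from root and leaf libraries together, so the leaf libraries enter its SE, intervals and p-values.

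The 12 libraries form 4 groups of 3. PEG leaves and PEG roots came from seedlings of cultivar R5, described by the submitters as tolerant to drought, that stood for 24 h in water with 15% PEG 6000, a polymer that makes water less available to the plant. Control leaves and control roots came from R5 seedlings kept in distilled water in parallel. All seedlings were raised in soil, reached the stage of 4 leaves and were rinsed before the treatment, so the move from soil to liquid is common to every group. The labels name no mutant or transgene, and do not say whether replicates were separate plants or pools, so p-values measure the spread between these libraries.

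MicroRNAs of plants are cut by Dicer-like enzymes from transcripts that fold into a hairpin, and are bound by Argonaute proteins that use them to find transcripts of complementary sequence, which are then cleaved or less translated. Many of the families shared by flowering plants act on transcription factors and shift under water deficit. A predicted microRNA is a computational call from reads that map to a stretch able to fold in this way. No target or role is annotated for these 3 names, and their mature sequences are not analysed here.

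The table gives the hairpin of novel_mir21 at positions 7075075 to 7075331 of the sequence CM007893.1, plus strand, a span of 257 bases. That of novel_mir25 lies on the plus strand of the same sequence at 123060168 to 123060590 (423 bases), 115984837 bases away. The hairpin of novel_mir12 lies on CM007892.1 at 69803067 to 69803174, plus strand (108 bases). The median span of the 90 predicted hairpins was 186 bases. The genome build is not given in the sources used here, and genes at these positions were not looked up. The nearest predicted neighbour was novel_mir22, 459027 bases from novel_mir21, while novel_mir26 and novel_mir13 lay 19734138 bases from novel_mir25 and 20184374 bases from novel_mir12.

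Counts per library ranged from 20829490 to 33426228 in all and from 3199001 to 6795847 in named features. Levels are given as counts per 1000000 named-feature counts, scaled with TMM factors (CPM). The classes differed most in control root library 3, which had a TMM factor of 0.292 and held 3.09% of its named counts in known microRNAs and 7.03% in siRNAs, so CPM levels in that library depend strongly on the scaling. No predicted microRNA had a count from 1 to 9 in any library, although 97 values were 0, so a 0 can stand for up to 9 reads. In bulk samples such as these, fewer cells of a type and less RNA per cell cannot be told apart.

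novel_mir21 was abundant in every library. It had 20306, 12687 and 57660 counts in the 3 PEG leaf libraries, against 2651, 1422 and 4785 counts in the 3 control leaf libraries. Every PEG leaf library lay above every control leaf library, and library 3 was the highest of its group in both. The CPM levels were 2812, 1852 and 8201 in PEG leaves, against 348.5, 173 and 632 in control leaves. The means were 4288 ± 3423 CPM in PEG leaves and 385 ± 232 CPM in control leaves (SD, n = 3 each), a fitted log2 fold change of 3.48. Without PEG leaf library 3 the log2 fold change was 2.60, and without control leaf library 3 it was 4.04. As reads per 1000000 of all reads (RPM), the scale of the deposited TPM values, it stood at 924 ± 703 in PEG leaves and 90.8 ± 50.4 in control leaves.

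novel_mir25 was scarce in leaves. It had 52, 82 and 268 counts in PEG leaves, against 0, 0 and 10 counts in control leaves. No PEG leaf library overlapped with the controls, and library 3 was again the highest of each group. In CPM the PEG leaf libraries stood at 7.20, 11.97 and 38.1, and the 1 control leaf library above 0 stood at 1.32. The ratio of the PEG leaf mean to the control leaf mean was 43.4 with zeros taken as 0 and 15.9 with each 0 set to 9 counts, so the control level is too close to the detection limit for the size of the difference to be well measured. The fitted log2 fold change was 5.38, with 4.38 without PEG leaf library 3 and 9.59 without control leaf library 3, which leaves a control group at 0.

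novel_mir12 was near the limit of detection in leaves. It had 0, 45 and 33 counts in PEG leaves, against 0 counts in all 3 control leaf libraries. Thus 1 PEG leaf library could not be told from the controls, and the label of a microRNA higher in PEG leaves rests on the other two. The PEG leaf mean was 3.75 ± 3.38 CPM (SD, n = 3), which is 3.25 times a control level of 9 counts in each library in CPM and at least 2.40-fold higher over 7 ways of scaling. Of the 90 predicted microRNAs, 12 were at 0 in all 3 control leaves, and 3 of these had counts in a PEG leaf: novel_mir12, novel_mir2 with 0, 10 and 20 counts, and novel_mir39 with 0, 0 and 73 counts. Of the 9 predicted microRNAs at 0 in all 3 PEG leaves, 0 had counts in a control leaf. novel_mir12 was chosen on these leaf libraries, so nothing is read from this contrast.

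**Figure D1:**
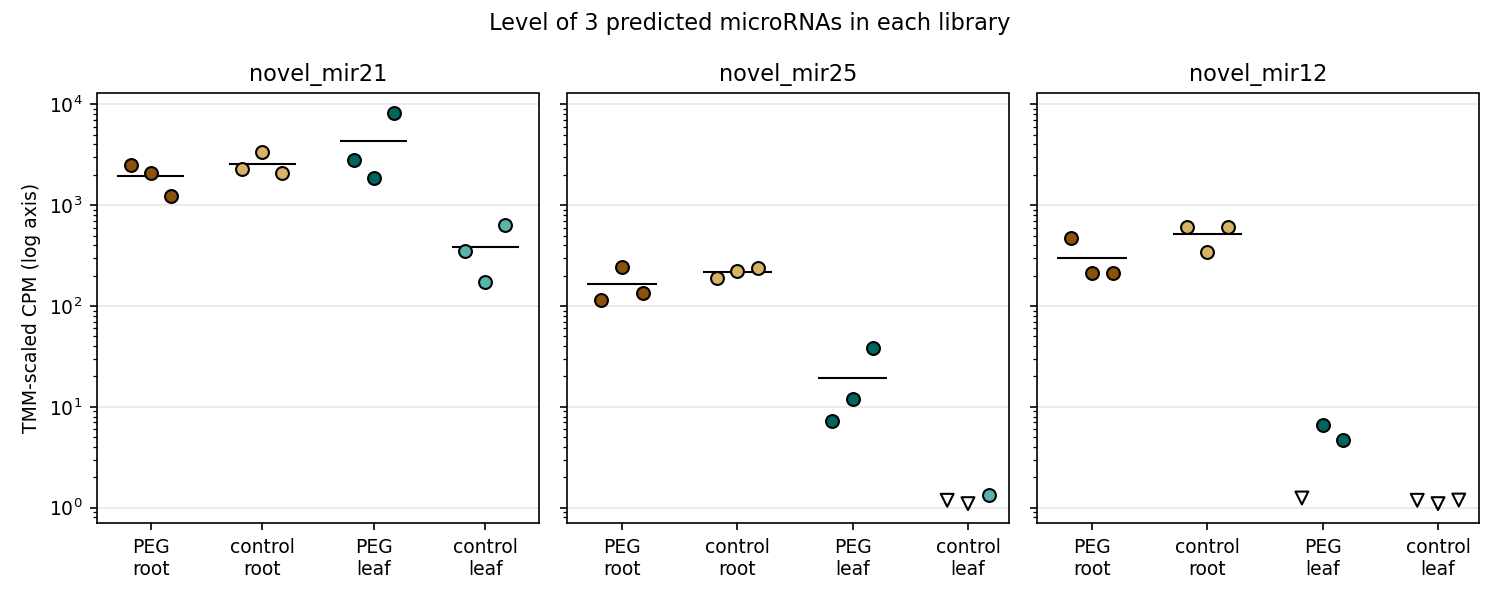
Level of novel_mir21, novel_mir25 and novel_mir12 in each of the 12 libraries, in TMM-scaled CPM on a log axis, for PEG roots, control roots, PEG leaves and control leaves (n = 3 each). Filled circles are libraries, horizontal lines are group means where no library is at 0, and open triangles mark a count of 0, drawn at the level of 9 counts. PEG leaves reach root levels for novel_mir21 and lie below both root groups for novel_mir25 and novel_mir12.

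Leaf libraries without overlap, higher under PEG, were found for 2 of the 3, novel_mir21 and novel_mir25. The same held for 19.2% of the 219 microRNA names tested and 6.21% of all 10604 features tested, and nothing is read from these counts because the leaf libraries chose the 3 names. Tested name by name over all features, edgeR called 0% of the 10604 in leaves (0 features), and 382 had p under 0.05 before adjustment. DESeq2 called 30 and limma voom 181.

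The comparison of PEG with control in roots asks whether the same names differ in the organ that stood in the PEG solution. None of the 3 passed, and each had overlapping PEG and control root libraries. novel_mir21 had 9669, 8199 and 5290 counts in PEG roots, against 6006, 9256 and 2414 counts in control roots. This corresponds to 2483, 2082 and 1233 CPM in PEG roots, against 2289, 3345 and 2073 CPM in control roots. The control library 2 was the highest and PEG library 3 the lowest of the 6, and the other 4 lay close together. The means were 1933 ± 638 CPM in PEG roots and 2569 ± 681 CPM in control roots (SD, n = 3 each). The log2 fold change was -0.41 ± 0.60 (SE), with a 95% interval of -1.74 to 0.91 (edgeR adjusted p = 1).

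novel_mir25 had 447, 955 and 581 counts in PEG roots, against 502, 613 and 275 counts in control roots. In CPM these were 115, 243 and 135 in PEG roots, against 191, 222 and 236 in control roots. PEG roots held both the highest and the lowest library, and the 3 control roots were within a factor of 1.23. The means were 164 ± 68.6 CPM in PEG roots and 216 ± 22.9 CPM in control roots, and the log2 fold change was -0.40 ± 1.02 (SE), with a 95% interval of -2.67 to 1.88 (edgeR adjusted p = 1).

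novel_mir12 had 1839, 829 and 902 counts in PEG roots, against 1582, 947 and 702 counts in control roots. In CPM these were 472, 211 and 210.3 in PEG roots, against 603, 342 and 603 in control roots. PEG library 1 lay between the control libraries and the other two lay below all of them. The means were 298 ± 151 CPM in PEG roots and 516 ± 150.5 CPM in control roots, and the log2 fold change was -0.79 ± 1.08 (SE), with a 95% interval of -3.28 to 1.69 (edgeR adjusted p = 1).

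The sign of these root values depends on the scaling. With library totals alone the log2 fold changes were 0.31 for novel_mir21, 0.46 for novel_mir25 and 0.03 for novel_mir12, none of them called. In RPM novel_mir21 stood at 307 ± 101 in PEG roots and 271 ± 155 in control roots (SD, n = 3 each). novel_mir25 stood at 26.3 ± 11.6 in PEG roots and 21.3 ± 8.04 in control roots, and novel_mir12 at 47.1 ± 23.1 in PEG roots and 50.0 ± 23.2 in control roots. The differences between the group means were smaller than the spread of the libraries on this scale. The intervals of the fit allow a PEG root level from 0.300 to 1.89 times the control root level for novel_mir21, from 0.157 to 3.68 times for novel_mir25 and from 0.103 to 3.23 times for novel_mir12. Changes of a few fold in novel_mir25 and novel_mir12 thus could not be told from the spread of this fit, which includes leaf libraries. With root libraries alone the log2 fold changes were -0.32 for novel_mir21, -0.30 for novel_mir25 and -0.68 for novel_mir12. The edgeR p-values before adjustment were then 0.468, 0.436 and 0.176, and none was called (adjusted p = 0.953, 0.953 and 0.874).

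**Figure D2:**
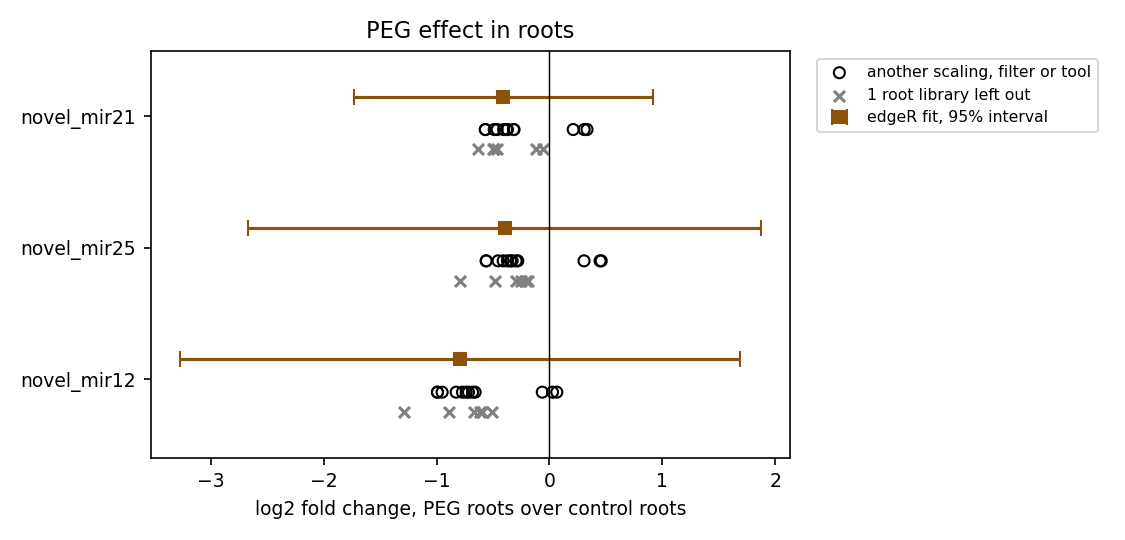
Log2 fold change of PEG roots over control roots for the 3 predicted microRNAs. Squares with bars are the edgeR estimates with 95% intervals, open circles other scalings, filters or tools, and crosses fits with 1 root library left out; each interval spans 0, and the other settings fall on both sides of 0 for each name.

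The count of 0 of 3 called in roots stands beside 2.17% of all 10604 features tested (230 features, 223 higher and 7 lower) and 0% of the 219 microRNA names tested (edgeR). Of these 219 names, 38 had p under 0.05 before adjustment, DESeq2 called 11 and limma voom 1. The count of 230 was 389 without PEG root library 1, 539 without control root library 1 and 431 without control root library 2, and 0 with microRNA rows only, with siRNA rows dropped or after zeros were set to 9. DESeq2 called 424, of which 307 were higher. Root libraries without overlap were found for 13.2% of microRNA names in the higher direction and 11.9% in the lower, and for 0 of these 3.

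No other microRNA was called in roots by edgeR. Of the other 87 predicted microRNAs, 0 were called, with 9 higher and 14 lower at p under 0.05 before adjustment and a median log2 fold change of 0.00. Of 129 tested known names 0 were called, with 9 higher and 6 lower before adjustment and a median of 0.03. Among these, 112 names of families tied to drought or abscisic acid had 0 calls, 8 higher and 3 lower before adjustment, and a median of 0.02. The median over all features tested was 0.00. The smallest p-values of the predicted class belonged to novel_mir46 (951 CPM in PEG roots and 6362 CPM in control roots, log2 fold change -2.74, adjusted p = 0.0945, edgeR) and novel_mir44 (2605 CPM in PEG roots and 6549 CPM in control roots, -1.33, adjusted p = 0.181). In the drought list they belonged to miR171a_2, of a family that targets GRAS transcription factors (7.72 CPM in PEG roots and 17.5 CPM in control roots, -1.17, adjusted p = 0.181), and miR399_1, of a family that targets a regulator of phosphate uptake (14.6 CPM in PEG roots and 3.11 CPM in control roots, 2.24, adjusted p = 0.181).

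**Figure D3:**
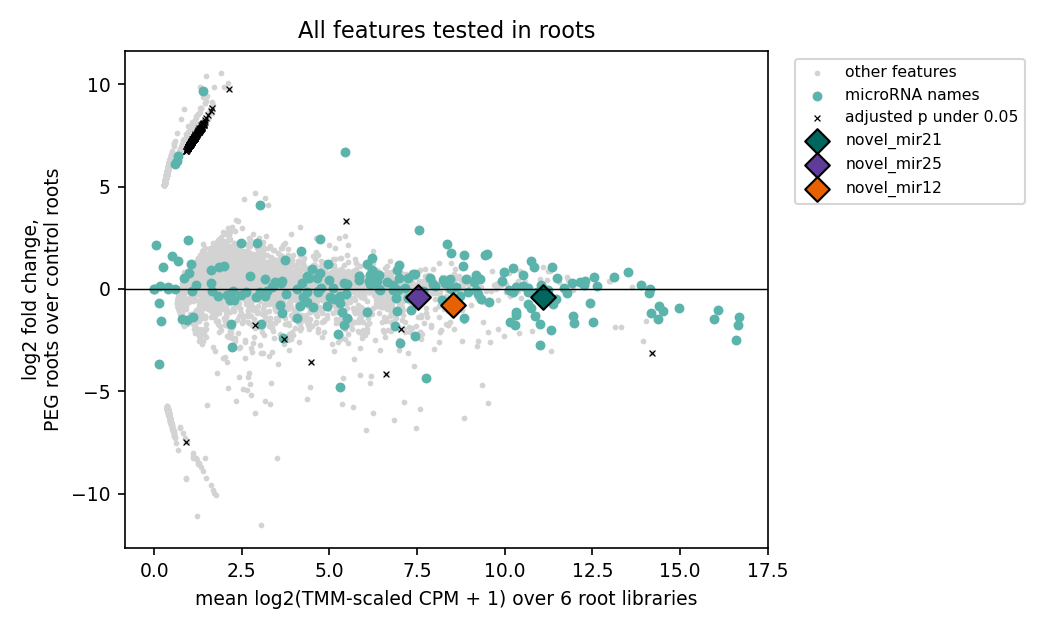
Log2 fold change of PEG roots over control roots against the mean log2(TMM-scaled CPM + 1) over the 6 root libraries for all 10604 features tested. Diamonds mark novel_mir21 (-0.41), novel_mir25 (-0.40) and novel_mir12 (-0.79) among the other microRNA names, and crosses mark the 230 features called.

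Root and leaf levels set the 3 names apart from each other. In control plants every root library lay above every leaf library in CPM for all 3, as for 34.7% of the microRNA names tested. In RPM this did not hold for novel_mir21, which stood at 108 in control root library 3 and 144 in control leaf library 3, whereas novel_mir25 and novel_mir12 showed no overlap in any of 7 scalings. novel_mir21 stood at 2569 ± 681 CPM in control roots and 385 ± 232 CPM in control leaves, a ratio of 6.68 that was 2.98 in RPM and 1.88 with siRNAs left out. For novel_mir25 the means were 216 ± 22.9 CPM in control roots and 0.440 ± 0.763 CPM in control leaves, a ratio of 180.3 with the leaf zeros set to 9 counts, and of 46.3 to 182 over the scalings. novel_mir12, at 516 ± 150.5 CPM in control roots and 0 in control leaves, was at least 113-fold higher in roots over the scalings, and 446-fold in CPM, against 9 counts in each leaf library. The control leaf libraries entered the choice of the 3 names, so these organ ratios are given without a test. novel_mir12 also passed the filter on low counts only through its root libraries, so nothing is read from its lack of overlap.

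Under PEG the organ order differed by name. For novel_mir21 the mean was 1933 ± 638 CPM in PEG roots and 4288 ± 3423 CPM in PEG leaves, with overlapping libraries. In RPM the PEG roots stood at 388, 339 and 194 and the PEG leaves at 638, 410.3 and 1725, so that each PEG leaf library lay above each PEG root library. For novel_mir25 it was 164 ± 68.6 CPM in PEG roots and 19.1 ± 16.6 CPM in PEG leaves, and for novel_mir12 298 ± 151 CPM in PEG roots and 3.75 ± 3.38 CPM in PEG leaves. Both were higher in each PEG root library than in any PEG leaf library, as for 33.3% of microRNA names tested. The share of all features was not counted. The PEG leaf libraries entered the choice of the 3 names, so nothing is read from this. novel_mir12 also passed the filter on low counts only through its root libraries.

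The order of the 4 groups was thus PEG leaves, control roots, PEG roots and control leaves for novel_mir21. In CPM its first 3 groups overlapped and control leaves lay apart, whereas in RPM PEG leaves did not overlap with PEG roots and control leaves overlapped with control roots. For novel_mir25 it was control roots, PEG roots, PEG leaves and control leaves, and the neighbouring pair of root groups was the only one to overlap. novel_mir12 had the same order, with overlap between the root groups and, through the PEG leaf library at 0, between the leaf groups. The order of the root groups does not hold for novel_mir21 and novel_mir25 in RPM.

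Root-rich microRNAs were set beside the leaf values as a check of the leaf libraries. The check used 16 names, 6 of the families miR477, miR3630 and miR6300 and the 10 most abundant predicted microRNAs of control roots with these 3 left out, a list chosen on these libraries. In PEG leaves 14 of 16 had counts in each library, against 13 or 14 of 16 in control leaves. miR477d and miR477e were at 0 in all 6 leaf libraries. Their summed level was 27249, 34458 and 33562 CPM in PEG leaves, against 14182, 12631 and 27040 CPM in control leaves. The lowest PEG leaf sum thus lay just above the highest control sum, and control leaf library 3 was the highest control for the list as for novel_mir21 and novel_mir25. The PEG leaf mean was above the control leaf mean for 14 of the 14 names with a value, by ratios of 1.30 to 3.70 with a median of 2.02. The same held for 65.7% of the 210 tested microRNA names with leaf counts (median ratio 1.25) and 52.9% of all such features (median ratio 1.02), and edgeR called none of the names in leaves.

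Measured against the mean of control roots, the median of this list was 1.61%, 2.32% and 2.73% in PEG leaves, against 0.932%, 0.680% and 1.73% in control leaves. novel_mir21 stood at 109%, 72.1% and 319% of its control root mean in PEG leaves, against 13.6%, 6.74% and 24.6% in control leaves. These values lay far above the list median in all 6 leaf libraries. The highest control leaf mean on the list was 6.08% of the control root mean, for novel_mir86. novel_mir25 stood at 3.33%, 5.53% and 17.6% in PEG leaves, against 0%, 0% and 0.611% in control leaves, above the list median in PEG leaves and below it in control leaves. The list sum in control root library 3 was 2108050 CPM, against 633627 and 615563 CPM in the other control roots, so these percentages depend on its scaling. Measured against PEG roots, novel_mir25 stood at 4.38%, 7.29% and 23.2% in PEG leaves. The list medians were then 4.41%, 6.01% and 7.56%, so in PEG leaf library 1 novel_mir25 was not above the list. novel_mir12 stood at 0%, 1.27% and 0.910% in PEG leaves and at 0% in each control leaf, below the list median in all 6. The part of root-rich microRNAs in the leaf values was not tested for any of the 3 names. Most of the list was chosen for its high level in control roots.

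The counts of the 3 names did not keep 1 ratio between organs. novel_mir21 had 21.6, 8.59 and 9.10 reads for each read of novel_mir25 in PEG roots, against 390.5, 155 and 215 in PEG leaves. For novel_mir12 the number of reads for each read of novel_mir25 was 4.11, 0.868 and 1.55 in PEG roots, against 0, 0.549 and 0.123 in PEG leaves. Each PEG leaf ratio of novel_mir12 to novel_mir25 was below every root ratio. Fragments of ribosomal, transfer, small nuclear and small nucleolar RNA, a check of RNA quality, made up 2.01%, 2.69% and 1.14% of named counts in PEG leaves, against 1.08%, 0.772% and 1.79% in control leaves, with overlap. PEG leaf library 3, the highest for novel_mir21 and novel_mir25, had the lowest such share of the PEG leaves. In roots this share was 7.93%, 8.66% and 9.41% under PEG, against 14.9%, 14.1% and 15.1% in controls, without overlap. Its part in the root comparison was not tested.

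**Figure D4:**
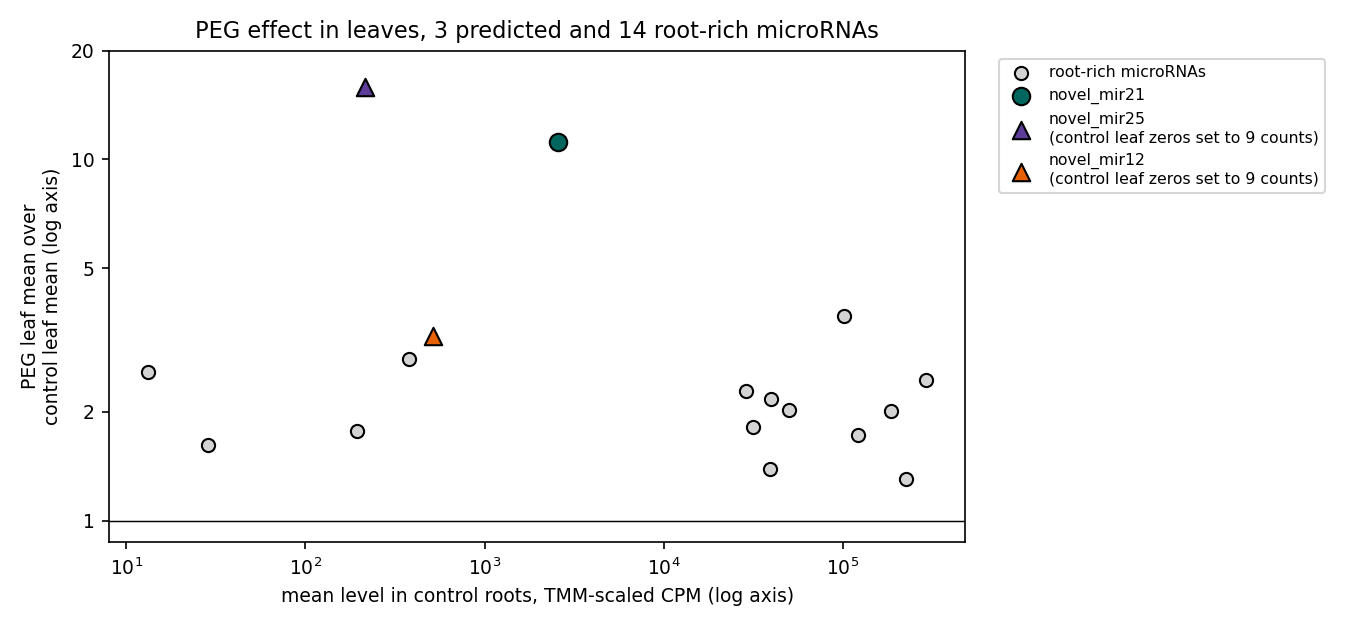
Ratio of the PEG leaf mean to the control leaf mean, on a log axis, against the mean level in control roots for 14 root-rich microRNAs (grey) and the 3 predicted microRNAs. The root-rich names lie between 1.30 and 3.70, novel_mir21 at 11.2 and, with control leaf zeros set to 9 counts, novel_mir25 at 15.9 and novel_mir12 at 3.25.

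Profiles over the 12 libraries were compared as the root mean square difference of log2(CPM + 1), each profile centred on its own mean, against the other 218 microRNA names tested. The nearest to novel_mir21 were miR319c_3 (difference 0.93), of a family that targets TCP transcription factors, miR160b_1 (0.97), of a family that targets auxin response factors, and novel_mir6 (1.04), against a median difference of 1.98. miR160b_1 stood at 34.0 CPM in PEG leaves and 6.16 in control leaves, and at 11.9 CPM in PEG roots and 9.45 in control roots. miR319c_3 stood at 56.1 CPM in PEG leaves and 14.9 in control leaves, and at 34.1 CPM in PEG roots and 92.2 in control roots. Both, and novel_mir6, had every PEG leaf library above every control leaf library, as novel_mir21 did. The same held for 19.2% of the microRNA names tested and 6.21% of all features tested. The neighbours were picked for likeness over these libraries, so shared leaf values in part follow from the choice.

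The nearest to novel_mir25 were the root-rich predicted microRNAs novel_mir13 (0.85), novel_mir83 (0.93) and novel_mir73 (1.01), against a median of 3.20. Of these, novel_mir13 stood at 918 CPM in PEG roots and 2032 in control roots, and at 63.5 CPM in PEG leaves and 22.1 in control leaves. The nearest to novel_mir12 were novel_mir2 (0.88), novel_mir10 (0.89) and novel_mir69 (0.92), against a median of 4.09. novel_mir2 stood at 85.4 CPM in PEG roots and 425 in control roots, and at 1.43 CPM in PEG leaves and 0 in control leaves. For all 6 of these neighbours the root means were above the leaf means under both treatments. The PEG leaf mean was above the control leaf mean for all 6 as well. Leaf libraries did not overlap for novel_mir83, novel_mir73, novel_mir10 and novel_mir69, and overlapped for novel_mir13 and novel_mir2. Higher PEG leaves without overlap held for 19.2% of the microRNA names tested and 6.21% of all features tested. These neighbours too were picked for likeness over these libraries. All profiles share the same 12 libraries and scaling factors, so likeness in part follows from the organ.

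Leaf values of the neighbours by position varied. novel_mir22, the nearest predicted microRNA to novel_mir21, had 234, 221 and 203 counts in PEG leaves, against 366, 402 and 300 in control leaves. Each PEG leaf library was lower than any control. The share of features with this pattern was not counted, and the neighbours by position were named after their values were seen. novel_mir26, the nearest to novel_mir25, had 101, 369 and 280 counts in PEG leaves, against 128, 26 and 291 counts in control leaves, with overlap. novel_mir13, the nearest to novel_mir12, had 262, 531 and 539 counts in PEG leaves, against 83, 59 and 364 counts in control leaves, also with overlap.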

How the data were processed

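Small RNA of 12 libraries was analysed from a table in which the authors deposited raw read counts per feature and the same values in TPM. The deposited TPM values equalled counts scaled to the column total (CPM) within 0.0051 in 99.4% of cells, were not divided by length and served only for this check. Bowtie2 2.2.9 and Bowtie appear, with no role, in the submitters' processing notes. Mapping settings and the rule for predicting microRNAs were not given in the sources used here. Entries for exons, introns and intergenic reads name no feature and were left out; they held 79.7% to 86.0% of counts.

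Counts were fitted in R 4.3.3 with edgeR 4.0.16 (TMM factors, quasi-likelihood test), all 4 groups of 3 together, for the 10604 features that reached 10 counts in 3 or more libraries. All 3 names passed this filter, novel_mir12 only through its root libraries. Adjustment was by Benjamini-Hochberg over all features tested, with calls at an adjusted p under 0.05. Intervals cover the spread of these libraries. Bounds cover only the missing counts from 1 to 9, and neither counting error nor the spread between libraries. Reads carry no molecular identifiers. A bound against zeros uses 9 counts per library. Alternatives were other scalings, filters and feature sets, DESeq2 1.42.0, limma 3.58.1 voom, the replicate number as a block and leaving out each library. Ratios of means over 7 scalings (6 of the fits, and RPM of all reads) were added after seeing the data. The scripts were tested on simulated counts. The 3 names, the lists and the tests were chosen with earlier results of these data known. Names beyond these 3 followed a rule: the 3 nearest profiles of each, the smallest p-values of a list, and the root-rich list. novel_mir2 and novel_mir39, at 0 in control leaves, and the neighbours by position were named after their values were seen.

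Labels give the groups the same replicate numbers. Same-numbered libraries deviated together only for control roots and control leaves (correlations 0.182, 0.216 and 0.218 over features), a hint from the data, and not for PEG and control roots (-0.00313 to 0.0562).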

Additional observations from a re-analysis of the deposited data

How the results depend on the processing

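In 18 settings none of the 3 names was called in roots; the lowest adjusted p was 0.725 for novel_mir21, 0.755 for novel_mir25 and 0.672 for novel_mir12. Signs turned, without a call, for novel_mir21, novel_mir25 and novel_mir12 with library totals alone (log2 fold changes 0.31, 0.46 and 0.027) and with siRNAs left out (0.33, 0.45 and 0.065), and for the first 2 names with zeros set to 9 (0.21 and 0.31). Leaving siRNAs out raised the root values of the features left in that fit by a median of 0.92. DESeq2 size factors moved the root values of all features tested by a median of -0.13. In leaves the largest such shift was -0.32, also without siRNAs. The direction in roots is thus not settled by these data. The 230 features called in roots became 0 with microRNAs only, without siRNAs and after zeros were set to 9, 148 at a minimum of 30 counts, 424 in DESeq2 and 222 to 539 with 1 root library left out. In leaves the log2 fold changes were above 0 in every setting run. With zeros set to 9 they were 3.93 for novel_mir25 and 1.78 for novel_mir12, and in limma voom 6.42 and 4.33. Leaving out single leaf libraries gave 2.60 to 4.04 for novel_mir21, 4.38 to 9.59 for novel_mir25 and 6.60 to 7.85 for novel_mir12, whose fitted values depend on the prior count. In leaves alone novel_mir12 had too few counts to be fitted. For control roots against control leaves the values stayed positive: novel_mir21 at 1.76 with library totals, 0.91 without siRNAs and 1.89 with zeros set to 9 (main value 2.74), novel_mir25 at 7.85, 7.03 and 6.53 (8.88; 10.26 in voom; 8.30 to 13.09 with 1 library left out), and novel_mir12 at 13.53, 13.12 and 7.81 (14.41; 12.89 in voom). With the replicate block novel_mir25 stood at 9.59 in this comparison, the root values were -0.41, -0.37 and -0.77 with 196 features called, and no call of the 3 names changed. Apart from zeros set to 9 and the siRNA and microRNA subsets, whose construction changes what is counted, the cause of these shifts was not tested.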
